A study of Mus musculus with 12 samples.

Results

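The regions described here are 4841 tiles of 1 kb on the mouse autosomes that began highly methylated in early-passage diploid embryonic stem cells (ESCs) and kept a mean methylation of 50% or more at late passage. They were selected on methylation in the diploid ESC libraries, from 46121 tested tiles. Each tested tile holds at least 5 cytosines that reached 20% methylation in at least 1 of 3 whole embryos and had a value in both diploid ESC libraries. A member tile had a mean of 60% or more in early diploid ESCs and of 50% or more in late diploid ESCs. The tiles that met the first condition but not the second numbered 29301, and these other highly methylated tiles are the main comparison. All positions are on the mouse genome build mm9.

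The study measured cytosine methylation by reduced representation bisulfite sequencing (RRBS), in which DNA cut by the enzyme MspI at CCGG is size-selected and bisulfite-treated, so that CpG-rich fragments are read. The 12 libraries, 1 per group, are late and early passage diploid ESCs (WT); late and early passage androgenetic haploid ESCs (ahESCs, WT), whose genome is paternal; late and early passage parthenogenetic haploid ESCs (phESCs, WT), whose genome is maternal; bimaternal (BM) and bipaternal (BP) whole embryos at E15.5, both labelled as knockouts of differentially methylated regions (DMR-KO), and a WT embryo at E15.5; and brains of adult BM (DMR-KO), E19.5 BM (DMR-KO) and adult WT mice. The labels do not say which regions were deleted, nor the passage numbers, strain or sex. BM animals came from a phESC injected into an oocyte, and BP embryos from an ahESC and a sperm injected into an enucleated oocyte. With 1 library per group there is no replicate error and no test of any difference, and intervals below are exact binomial (or order-statistic) 95% intervals over tiles, which are not replicates of a condition.

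CpG methylation is copied to the new DNA strand after replication by the maintenance enzyme Dnmt1 together with its partner Uhrf1, and it is laid down anew by Dnmt3a and Dnmt3b. Where copying falls behind cell division, methylation is diluted as cells are passaged, and mouse ESCs are known for wide loss of this kind in culture. Some sequences, such as certain retrotransposons, are known to hold methylation through the similar erasure in early embryos and germ cells.

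The sequences below show what was read in the exons and the promoter that the results turn on. Each is given 5′ to 3′ on the strand of the gene, and capitals mark the CpGs that passed the filter. The exons are GENCODE M21 sequence placed on mm9 by the pattern of listed positions. The promoter is the 250 bases before the gene start in the RefSeq table of GRCm38.p6, placed in the same way. Srrm2 was on a list of genes known to escape erasure, Tenm2 and Atxn1 are the exonic members with the most cytosines, and Ttn is the gene with the most member tiles. Cavin4 stands for the few members at a promoter, and Camta1, an exon that began as high but did not keep its methylation, is the contrast. Ttn, Cavin4 and Camta1 were chosen after their values were seen.
Srrm2 coding exon (chr17:23956333-23956468, plus strand): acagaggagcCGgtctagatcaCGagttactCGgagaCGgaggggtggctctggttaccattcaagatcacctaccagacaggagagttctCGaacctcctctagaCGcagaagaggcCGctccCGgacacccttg
Tenm2 coding exon (chr11:35837305-35837524, minus strand): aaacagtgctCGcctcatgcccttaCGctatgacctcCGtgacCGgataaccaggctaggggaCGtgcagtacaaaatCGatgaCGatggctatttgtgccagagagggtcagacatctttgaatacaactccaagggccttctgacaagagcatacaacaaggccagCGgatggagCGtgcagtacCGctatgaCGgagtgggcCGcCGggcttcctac
Atxn1 coding exon (chr13:45662142-45662391, minus strand): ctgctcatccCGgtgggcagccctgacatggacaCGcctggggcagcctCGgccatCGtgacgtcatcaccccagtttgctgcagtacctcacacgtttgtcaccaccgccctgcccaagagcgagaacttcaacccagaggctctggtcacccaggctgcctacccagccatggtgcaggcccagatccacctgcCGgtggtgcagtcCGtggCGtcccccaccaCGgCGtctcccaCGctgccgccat
Ttn coding exon (chr2:76596760-76596958, minus strand): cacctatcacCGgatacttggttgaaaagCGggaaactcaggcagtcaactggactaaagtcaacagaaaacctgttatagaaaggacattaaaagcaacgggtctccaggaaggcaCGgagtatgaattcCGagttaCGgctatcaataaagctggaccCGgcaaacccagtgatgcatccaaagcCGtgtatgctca
Cavin4 promoter (chr4:48676136-48676385, plus strand): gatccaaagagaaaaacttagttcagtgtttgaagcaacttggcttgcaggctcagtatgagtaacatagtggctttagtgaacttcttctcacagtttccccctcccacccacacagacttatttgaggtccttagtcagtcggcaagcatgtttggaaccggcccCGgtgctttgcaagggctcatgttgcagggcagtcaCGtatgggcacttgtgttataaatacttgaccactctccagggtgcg
Camta1 coding exon, not a member (chr4:150519345-150519591, minus strand): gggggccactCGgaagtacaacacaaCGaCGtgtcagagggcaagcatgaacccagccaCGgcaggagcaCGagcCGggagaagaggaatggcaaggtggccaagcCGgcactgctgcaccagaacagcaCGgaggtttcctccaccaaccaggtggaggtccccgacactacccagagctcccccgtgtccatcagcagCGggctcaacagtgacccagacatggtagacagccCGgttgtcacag

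The 14 measured cytosines of the Srrm2 exon, from a gene for a large scaffold protein of the spliceosome, ran from 42.2% to 72.2% in late diploid ESCs (median 63.0%), against 83.2% to 95.3% in early diploid ESCs (median 92.6%). The 25 measured cytosines of the Tenm2 exon, from a gene for a neuronal adhesion protein, ran from 32.6% to 84.9% in late diploid ESCs (median 60.3%) and from 87.8% to 96.9% in early ones (median 94.3%). The late values were spread far more widely than the early values within both exons. In the Camta1 exon, from a gene for a calmodulin-binding transcription activator, the 17 measured cytosines ran from 11.4% to 49.5% in late diploid ESCs (median 23.2%), against 83.5% to 92.6% in early ones (median 89.3%). The Srrm2, Tenm2 and Camta1 exons thus had similar early levels and differed at late passage, which is what the selection asked of them. In late ahESCs, a library that the selection did not use, the median cytosine was at 70.2% in the Srrm2 exon, 68.1% in the Tenm2 exon and 32.2% in the Camta1 exon. In late phESCs the medians were 55.4%, 61.3% and 33.3% in that order of genes. The Atxn1 exon, though in a member tile, had medians of 39.6% in late ahESCs and 31.9% in late phESCs (14 and 3 cytosines), nearer to the Camta1 exon than to the Srrm2 and Tenm2 exons.

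Member tiles were not free of loss. Their median level was 57.0% in late diploid ESCs, against 90.1% in early diploid ESCs, and the median difference of late minus early was -31.8 points. Of the 4841 members, 3909 (80.7%) were lower at late passage by 25 points or more, where 83.3% of all tested tiles were. Among the other highly methylated tiles the median was 31.8% late and 81.3% early, with a median difference of -47.7 points. The members' name as regions that resist loss therefore holds only relative to other tiles, and the selection fixed this contrast. Over all 46121 tested tiles the rule took 10.5%, and over the 34142 that began at 60% or more it took 14.2%.

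**Figure D1:**
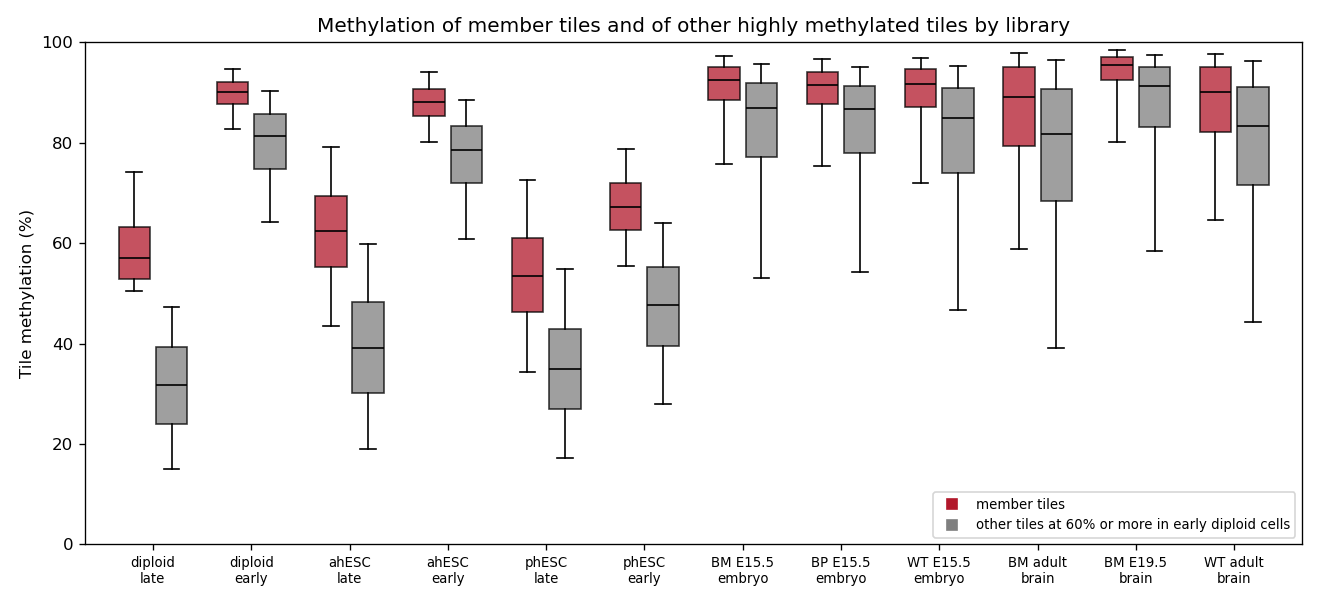
Methylation (%) of member tiles and of the other tiles at 60% or more in early diploid ESCs, in each of the 12 libraries; boxes span the quartiles with the median as a line, and whiskers run from the 5th to the 95th percentile of tiles. The sets are far apart in the late ESC libraries and in early phESCs, with medians of 62.5% and 39.1% in late ahESCs, and lie closer in embryos and brains; the diploid libraries defined the sets.

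Most members sat near the lower limit. In late diploid ESCs 3083 members were at 50% to 60%, 1849 of them at 50% to 55%, and 2816 tested tiles that began high lay just outside at 45% to 50%. The 5 members nearest the limit had just 50% in late diploid ESCs and 49.3% to 70.4% in late ahESCs, while the 5 tiles nearest below it had 57.5% to 67.0% in late ahESCs. The limit therefore cuts through a continuous range. At the other end, 67 members were at 80% or more in late diploid ESCs. The early condition removed little, since 22 of the 4863 tiles at 50% or more at late passage had been under 60% early.

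The haploid cells gave values that the selection had not used. In late ahESCs 3689 of 4259 measured members (86.6%, interval 85.6 to 87.6%) were at 50% or more, against 20.8% of the other highly methylated tiles and 22.4% of all tested tiles. The members' median there was 62.5%, against 39.1% in the other tiles. In late phESCs 1552 of 2457 measured members (63.2%, interval 61.2 to 65.1%) reached 50%, against 10.8% of the other tiles and 12.4% of all tested tiles, with medians of 53.5% and 34.9%. The members thus stood above the other tiles in both late haploid libraries, although 36.8% of the members measured in late phESCs were under 50% there.

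Early phESCs were already lower than the other early cells. In them 4718 of 4779 members (98.7%) were at 50% or more, against 42.5% of the other highly methylated tiles and 37.5% of all tested tiles, and the medians were 67.2% in members and 47.7% in the other tiles. In early ahESCs all 4798 measured members were at 50% or more, against 99.3% of the other highly methylated tiles and 79.6% of all tested tiles, so members and the other highly methylated tiles hardly differed at this limit. The median levels there were 88.2% in members and 78.6% in the other tiles. The gap between the sets was 19.4 points in early phESCs and 9.56 points in early ahESCs.

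**Figure D2:**
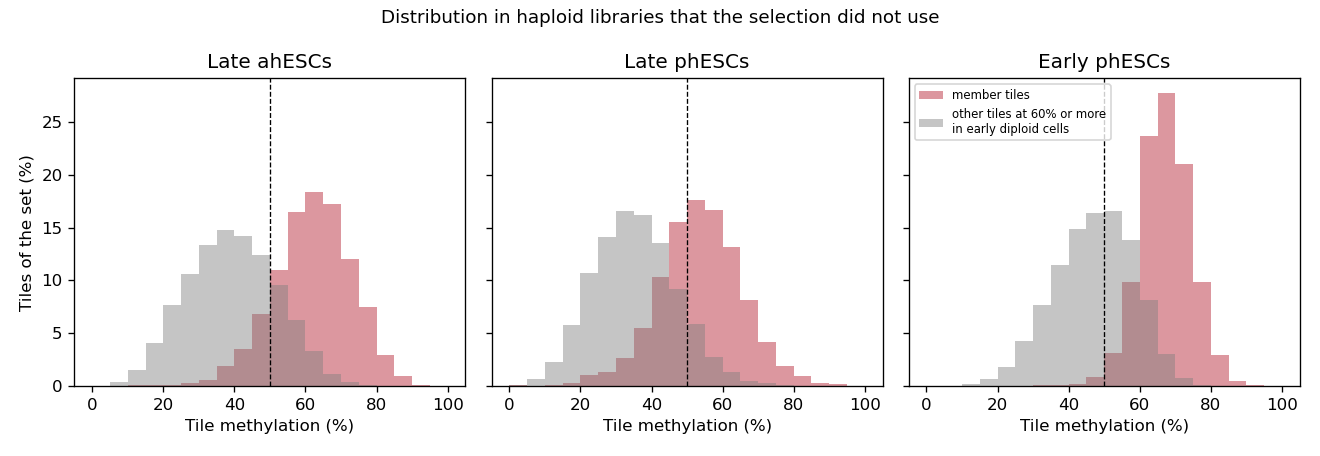
Share of tiles (%) by methylation (%, bins of 5 points) in late ahESCs, late phESCs and early phESCs, for member tiles and for the other tiles at 60% or more in early diploid ESCs; the dashed line marks 50%. The member tiles peak above 50% in all 3 libraries, at medians of 62.5%, 53.5% and 67.2%, while the other tiles peak below it in both late libraries.

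Members also began higher than the other tiles. Between 87.8% and 92.2% in early diploid ESCs, the quartiles of the members, lay 2421 members and 3635 other tiles. In late ahESCs 86.9% of these members reached 50%, against 41.6% of these other tiles, and the medians were 62.5% and 47.4%. In late phESCs 62.9% of these members and 33.3% of these other tiles reached 50%, with medians of 53.0% and 45.5%. At a like starting level in early diploid ESCs the sets were closer but still apart. They were not alike in early phESCs, with medians of 67.1% in these members and 58.8% in these other tiles. The late phESC values are thus not at a like start in phESCs. In early ahESCs the medians were 88.1% and 86.6%.

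Over whole tiles, the difference with passage was smaller in members than in the other tiles in ahESCs, and close between the sets in phESCs. In ahESCs the members' median was 62.5% late and 88.2% early, a median difference of -24.9 points, and 2102 of 4225 (49.8%) were lower by 25 points or more, against 88.0% of the other tiles and 68.3% of all tested tiles. None of the members was higher by that much, where 0.0436% of all tested tiles were. In phESCs the median difference was -13.2 points in members and -11.6 points in the other tiles. There 293 of 2440 members (12.01%) were lower by 25 points or more, against 7.16% of the other tiles and 6.52% of all tested tiles, and 3 members were higher by that much, where 0.2% of all tested tiles were. So in phESCs the members kept a higher level without a smaller loss between the passages sampled. Early phESC means include CCGG sites, which late phESCs nearly lack. For CpGs outside CCGG with C or G on both sides, members averaged 65.9% in early and 54.9% in late phESCs. The other tiles averaged 42.6% and 36.7%. With A or T on both sides the averages were 62.5% and 51.6% in members, against 40.3% and 32.8%. The part of CCGG sites in the whole-tile differences was not tested.

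The libraries differ in ways that bear on these comparisons. Late ahESCs, late phESCs and both adult brains have values on unplaced sequence of chromosome Y (4124 positions in late ahESCs, 2348 in late phESCs, 2209 in adult BM brain and 7697 in adult WT brain), where the other 8 libraries have none. Each late haploid library is thus compared with an early one of another kind, and passage and library kind cannot be told apart in haploid cells. CCGG sites made up 1.48% of the members' cytosines of known context in late phESCs, against 27.5% in early phESCs and 29.3% in late ahESCs. With cytosines of known CpG context outside CCGG alone, 442 tiles met the rule, and 88.3% of them in late ahESCs and 69.9% in late phESCs were at 50% or more. Read depth is unknown, because percentages were deposited without coverage.

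Members higher in late diploid ESCs were also higher in the other libraries. Members at 50% to 60%, 60% to 70%, 70% to 80% and above 80% in late diploid ESCs numbered 3083, 1277, 414 and 67. Their medians over these 4 ranges were 59.7%, 66.5%, 73.8% and 80.1% in late ahESCs. In late phESCs they were 51.0%, 56.8%, 64.2% and 72.0%. Early phESCs gave 64.8%, 70.8%, 76.2% and 82.2%. Early ahESCs gave 86.9%, 89.9%, 92.4% and 94.2%, and the WT embryo 90.9%, 92.8%, 93.4% and 94.9%. The median rose over these ranges in every library of the series, early diploid ESCs (89.1% to 94.7%), embryos and brains included, so the order is not particular to late or to haploid cells.

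Of 2398 members measured in both late haploid libraries, 1446 (60.3%) were at 50% or more in both and 135 (5.63%) in neither. Taken singly, 86.6% of measured members in late ahESCs and 63.2% in late phESCs were at this level, so the share in both is not read as a sign that these libraries held the same members. Among the other highly methylated tiles 6.33% were at 50% or more in both. Across the members the levels in late ahESCs and late phESCs had a Pearson correlation of 0.389 and a Spearman correlation of 0.389. These were lower than across the other highly methylated tiles (0.592 and 0.609) and across all tested tiles (0.812 and 0.816), as a description over tiles that share each library's depth. The rule narrowed the range of members, with quartiles of 55.2% and 69.5% in late ahESCs against 22.6% and 48.5% over all tested tiles. A narrower range can by itself lower a correlation, so these values are not read as weaker agreement in members.

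A ranking by the mean of the late ahESC and late phESC levels covered the 1213 members with at least 5 cytosines in each of these libraries. The mean ran from 22.4% to 87.9% with a median of 59.0%, and 12 members were at 80% or more. The tile chr12:3149001-3150000 led, with 85.6% in late ahESCs, 90.1% in late phESCs and 87.0% in late diploid ESCs, against 92.9%, 84.0% and 94.98% in the matching early cells. It lies outside placed genes, 86 kb from a placed exon of Rab10os. The second was chr10:82899001-82900000 in the gene D10Wsu102e, with 84.9%, 88.7% and 82.7% in late ahESCs, late phESCs and late diploid ESCs. Next came chr9:38426001-38427000, which had 90.7%, 81.3% and 84.1% in these libraries and lies 471 kb from the nearest placed gene.

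The other 7 of the 10 highest were chr10:4124001-4125000, chr1:107436001-107437000, chr4:149556001-149557000, chr6:95429001-95430000, chr10:18476001-18477000, chr14:119162001-119163000 and chr3:21056001-21057000. The tile on chromosome 6 lies between exons of Suclg2, which encodes a subunit of the mitochondrial succinate-CoA ligase, and 8 of the 10 lie outside placed genes. Over the 10 tiles late ahESCs had 82.3% to 90.7%, late phESCs 77.2% to 90.1% and late diploid ESCs 67.5% to 88.6%. The adult WT brain had 95.5% to 98.4% in them. In all 10 the late values of the 3 ESC types stood below the adult WT brain.

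The 5 lowest of the ranking showed that staying above 50% in late diploid ESCs did not carry over everywhere. They were chr7:97721001-97722000, chr10:25698001-25699000, chr1:10812001-10813000, chr4:66563001-66564000 and chr9:57162001-57163000, all outside placed genes. In late ahESCs they had 13.0% to 44.7% and in late phESCs 1.95% to 35.6%, while late diploid ESCs had 50.8% to 55.7%. The tile on chromosome 1 was the most uneven, with 44.7% in late ahESCs, 1.95% in late phESCs and 55.7% in late diploid ESCs, against 68.6%, 70.6% and 80.6% in the matching early cells. In the adult WT brain these 5 tiles had 82.0% to 97.5%.

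In embryos and brains the members were near full methylation. Their median was 92.6% in the BM embryo, 91.6% in the BP embryo and 91.7% in the WT embryo, against 86.8%, 86.7% and 84.9% in the other highly methylated tiles. Of 4508 members measured in all 3 embryos, 3878 (86.0%) were at 80% or more in each, against 59.0% of the other tiles and 54.0% of all tested tiles. The embryo filter of the selection touched these values, so they are a description. In brains of adult BM, E19.5 BM and adult WT mice, which it did not use, the members' medians were 89.1%, 95.5% and 90.03%, against 81.7%, 91.4% and 83.4% in the other tiles. At a like starting level in early diploid ESCs the gaps in embryos and brains all but closed. In the WT embryo the medians were 91.7% in members and 90.2% in other tiles. In brains of adult BM, E19.5 BM and adult WT mice they were 88.7%, 95.4% and 89.6% in members. The other tiles had 87.8%, 94.96% and 88.9% there.

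Only 43 of these 4508 members (0.954%) were under 50% in any embryo, against 14.1% of all tested tiles, and 7 were under 50% in all 3. The 7 had 32.1% to 48.5% in the WT embryo and 50.9% to 64.6% in late diploid ESCs. One of them, chr10:13149001-13150000 between exons of Phactr2, a regulator of phosphatase and actin, had 55.3% in late and 89.2% in early diploid ESCs. In embryos it had 30.002% in BM, 35.9% in BP and 38.9% in WT, and in brains 32.4% in E19.5 BM and 24.1% in adult WT. The tile chr8:12214001-12215000 was also low in brain, with 18.1% in adult BM, 10.6% in E19.5 BM and 29.2% in adult WT, against 51.2% in late and 86.6% in early diploid ESCs. The tile chr10:61671001-61672000, between exons of Tspan15, a tetraspanin partner of the protease ADAM10, was under 50% in embryos (49.3%, 48.8% and 48.5% in BM, BP and WT) yet at 84.7% in the E19.5 BM brain.

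Members lay outside placed exons more often than the other tiles. Of the 4841 members, 1008 (20.8%, interval 19.7 to 22.0%) overlapped a placed exon, against 30.9% of the other highly methylated tiles and 32.5% of all tested tiles. Members lay between placed exons of a gene in 17.4% and away from placed genes in 61.8%, against 19.4% and 49.6% of the other tiles. A placed gene start fell in 3.10% of members, 5.20% of the other tiles and 6.63% of all tested tiles. A placed promoter window fell in 19 members (0.392%), against 1.205% of the other tiles and 1.98% of all tested tiles. Only 17.6% of the exons tried could be placed, so these shares understate genic tiles in both sets. Placing an exon needed 8 listed positions, and the median tile held 29 in members and 32 in the other tiles. The understatement may thus be larger in members, which was not tested. The median tile held 7 cytosines in members and 8 in the other tiles.

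Of those 19 promoter members, 13 carried only provisional gene names. The Cavin4 tile, at the promoter of a gene for a muscle protein of caveolae, had 54.4% in late diploid ESCs, 57.5% in late ahESCs and 57.4% in late phESCs, against 87.6%, 81.2% and 61.9% in the matching early cells. In embryos it had 83.0%, 84.5% and 84.8% in BM, BP and WT. Over the 19 tiles late ahESCs ranged from 31.1% to 71.8%. The printed Cavin4 window held 2 measured CpGs, so most of the tile's 9 cytosines lie beside it.

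Base composition was available where at least 200 bases of a tile were placed exon. The median GC content was 53.3% in 617 members and 55.1% in 5808 other tiles, and the median CpG density was 2.33 per 100 bases in members and 2.78 in the other tiles. The letters TGCCGC, on either strand, the known motif of the imprint-protecting factor Zfp57, were present in 12.8% of these members, 15.03% of the other tiles and 19.2% of all tested tiles of this kind. A match is only a match of letters. A pattern of 16 consecutive gaps between listed positions recurred elsewhere in the genome for 18.1% of the 3907 members that had such a pattern, 14.2% of the other tiles and 17.7% of all tested tiles. The share of members was thus near that of all tested tiles. Such a pattern was found at 20 places or more for 3.79% of these members, 5.67% of the other tiles and 6.77% of all tested tiles. Repeat annotation of mm9 was not used here.

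Pooled over all member tiles, the bases beside a CpG went with its level. No comparison inside single tiles was made. Context was known for 7200 of 39705 member cytosines (18.1%). CpGs with A or T on both sides averaged 51.6% in late diploid ESCs, against 60.1% for those with C or G on both sides outside CCGG, a difference of -8.54 points. In early diploid ESCs the difference was -3.56 points (87.3% and 90.8%). In late ahESCs, which the selection did not use, it was -9.88 points (55.2% and 65.1%), and in late phESCs -3.28 points (51.6% and 54.9%). The other highly methylated tiles showed the same order, with differences of -5.89 points in late diploid ESCs and -8.12 points in late ahESCs, so this is not shown to be particular to members.

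**Figure D3:**
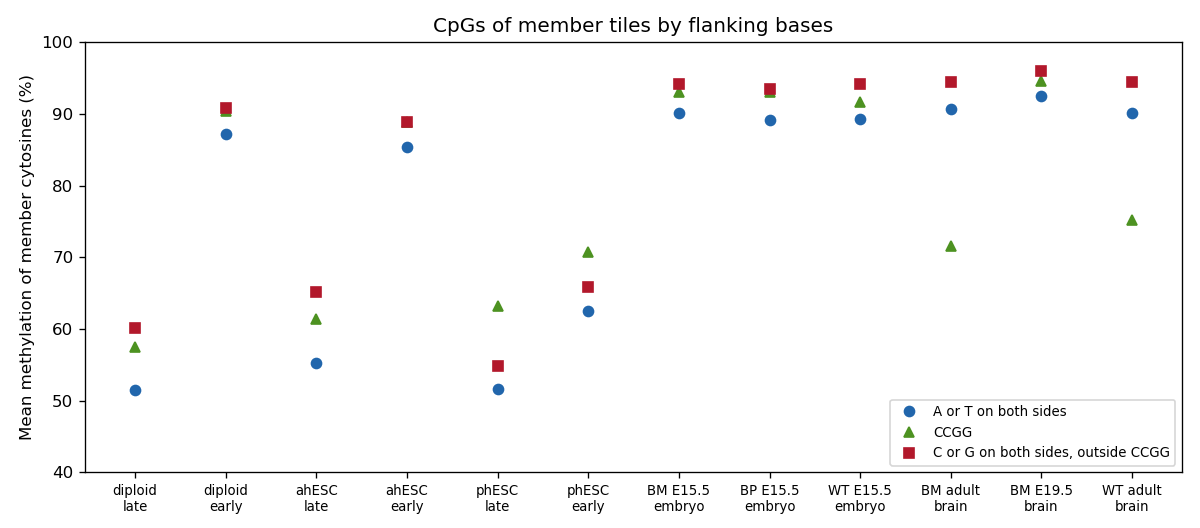
Mean methylation (%) of member cytosines of known context by the bases beside the CpG, in each library; the vertical axis starts at 40%. The gap between A or T flanks and C or G flanks is widest in late ahESCs (55.2% and 65.1%) and late diploid ESCs (51.6% and 60.1%), and CCGG stands low in adult brains (71.6% in BM and 75.2% in WT).

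Measured values differed between the cytosines of a member tile. In late diploid ESCs 73.4% of member cytosines were at 50% or more and 1.52% were under 25%, and the median standard deviation within a tile was 12.3 points. Depth per cytosine is unknown, so sampling of reads and differences between cytosines cannot be told apart in this spread. CCGG cytosines of members stood at 71.6% in adult BM brain and at 75.2% in adult WT brain, against 94.5% in both for C or G flanks outside CCGG. In the E19.5 BM brain the 2 contexts had 94.5% and 96.02%. The lower member medians in adult than in E19.5 brain therefore came with this difference at CCGG, whose part was not tested.

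Members had other members nearby. Of 819 tested neighbours at 1 kb that began at 60% or more, 362 (44.2%, interval 40.8 to 47.7%) were members too, against 9.79% of the 4669 such neighbours of other tiles. The share was 29.6% against 12.7% at 2 kb, 23.9% against 12.3% at 5 kb and 21.3% against 10.8% at 10 kb. At 20 kb it was 13.4% (interval 9.49 to 18.3%) against 11.4%, and at 50 kb 9.44% against 11.98%. At 100 kb it was 18.03% (interval 13.4 to 23.4%) against 12.4%. The gap was thus largest between adjacent tiles and shrank to 20 kb. It did not shrink steadily beyond: beside members, members were the less frequent at 50 kb and the more frequent at 100 kb. Each pair of members was counted from both sides, so these intervals are too narrow, and no distance is set apart by them. Adjacent tiles can share MspI fragments and reads, which were not separated here.

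**Figure D4:**
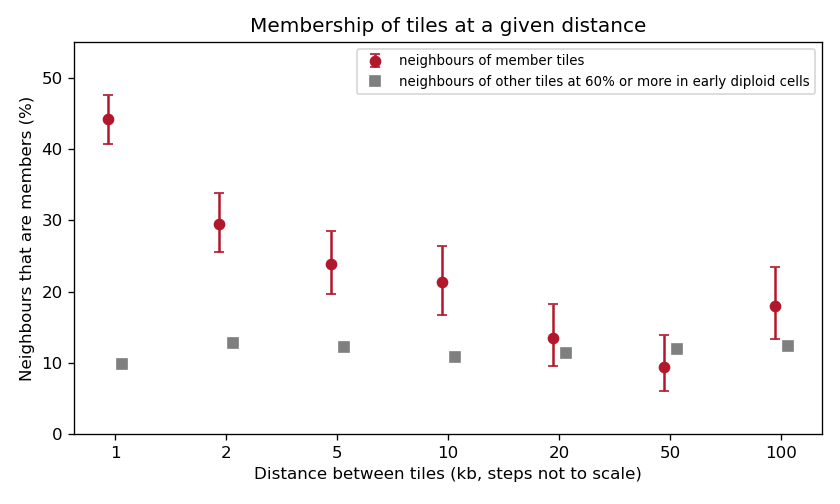
Share (%) of tested neighbouring tiles at 60% or more in early diploid ESCs that are members, by distance (kb, steps not to scale). Neighbours of member tiles and of the other tiles are shown apart, and bars are exact binomial 95% intervals over tiles. Each pair of members was counted from both sides, so the bars are too narrow. The share beside members is 44.2% at 1 kb and comes down to 13.4% at 20 kb and 9.44% at 50 kb and is 18.03% at 100 kb, while beside other tiles it stays between 9.79% and 12.7%.

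Of the 4841 members 344 (7.11%) were next to another member, in 147 pairs, 14 runs of 3 tiles and 2 runs of 4 tiles. This share is over all members. Only 819 neighbours at 1 kb were tested and began at 60% or more, so most members had no neighbour that could be a member. Across chromosomes the members made up 10.97% (chromosome 11) to 18.1% (chromosome 13) of the tiles that began at 60% or more. The 95% intervals were 9.78 to 12.3% on chromosome 11 and 16.1 to 20.2% on chromosome 13.

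The first run of 4, chr10:82875001-82879000, lies in D10Wsu102e and had 70.3% to 85.5% in late diploid ESCs, 75.3% to 86.3% in late ahESCs and 57.9% to 93.3% in late phESCs, against 92.9% to 97.3% in early diploid ESCs. The second, chr12:20237001-20241000, with no placed exon, had 57.6% to 67.7% in late diploid ESCs against 82.8% to 92.4% in early ones. Its 4 tiles had 22.9%, 54.1%, 46.0% and 57.3% in late ahESCs, so it was kept less well there than the run on chromosome 10.

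Of the runs of 3, those in Ttn, Atg2b and Gm9173 overlapped placed exons. The Atg2b run, chr12:106862001-106865000 in a gene for a lipid transfer protein of autophagy, was uneven. Its first tile had 50.1% in late and 72.2% in early diploid ESCs, and 94.7% in the WT embryo. Its other tiles had 66.2% and 68.6% in late diploid ESCs, against 94.6% and 92.5% in early ones, yet only 54.4% and 57.1% in the WT embryo. The first tile was thus the lowest of the 3 in late diploid ESCs and the highest in the WT embryo. The run at Gm9173, chr3:95219001-95222000, had 64.2% to 75.8% in late diploid ESCs and 72.7% to 81.8% in late ahESCs.

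The other 11 runs of 3 held no placed exon. They start at position 85218001 on chromosome 1, 30086001 on chromosome 2, 3285001 and 146845001 on chromosome 4, 148616001 on chromosome 5 and 133503001 on chromosome 6. The rest start at 5056001 and 89333001 on chromosome 12, 14780001 on chromosome 15, and 36990001 and 49853001 on chromosome 18. The run at 89333001 on chromosome 12 had the highest floor of all 16 runs, with 77.6% to 86.9% in late diploid ESCs against 94.1% to 94.7% in early ones. Its tiles had fewer than 3 cytosines with a value in late ahESCs. Over the 50 tiles of all 16 runs the median was 65.7% in late diploid ESCs and 68.3% in late ahESCs.

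D10Wsu102e, whose members were singled out after their values were seen, had 8 members among its 9 tested tiles. All 9 lie in 1 annotated exon of 122802 bases at chr10:82828449-82951250, nearly all of it 3′ untranslated region in GENCODE M21. Its 8 members had 51.3% to 85.5% in late diploid ESCs (median 77.9%), 50.9% to 86.3% in late ahESCs (median 78.6%) and 57.9% to 93.3% in late phESCs (median 69.2%, 7 tiles), against 88.8% to 97.3% in early diploid ESCs. The 9th tile had 44.2% in late and 85.3% in early diploid ESCs. The lowest tiles were at the 5′ end of the exon, with 44.2%, 51.3% and 62.9% in order, and the tiles beyond all stood above 70% in late diploid ESCs.

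Ttn, which encodes the giant sarcomere protein titin, had 11 members among 24 tiles that began at 60% or more. These 11 had 51.9% to 77.0% in late diploid ESCs (median 59.7%), 44.5% to 78.3% in late ahESCs (median 60.5%, 10 tiles) and 32.5% to 57.8% in late phESCs (5 tiles), against 86.2% to 93.4% in early diploid ESCs. The gene's other 13 such tiles had 14.0% to 49.5% in late diploid ESCs and 14.9% to 60.2% in late ahESCs (median 40.5%, 10 tiles). Member and other tiles were intermixed along the gene, though some of the others lay just below the limit. The tile chr2:76600001-76601000, not a member, had 49.5% in late diploid ESCs and 57.3% in late ahESCs. The tile chr2:76737001-76738000, not a member, had 20.05% in late diploid ESCs, while the member at chr2:76735001-76736000 had 52.2%.

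Tenm2 had 2 adjacent members among 5 tiles that began at 60% or more. The member with 49 cytosines, chr11:35837001-35838000, had 58.0% in late diploid ESCs, 59.2% in late ahESCs and 55.7% in late phESCs, against 93.3%, 91.7% and 72.6% in the matching early cells. The tile chr11:36757001-36758000 of the same gene, at an annotated start, had 7.91% in late and 75.04% in early diploid ESCs. In late ahESCs it had 8.95%. Within this gene the tile at the start thus kept the least and the adjacent members the most.

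**Figure D5:**
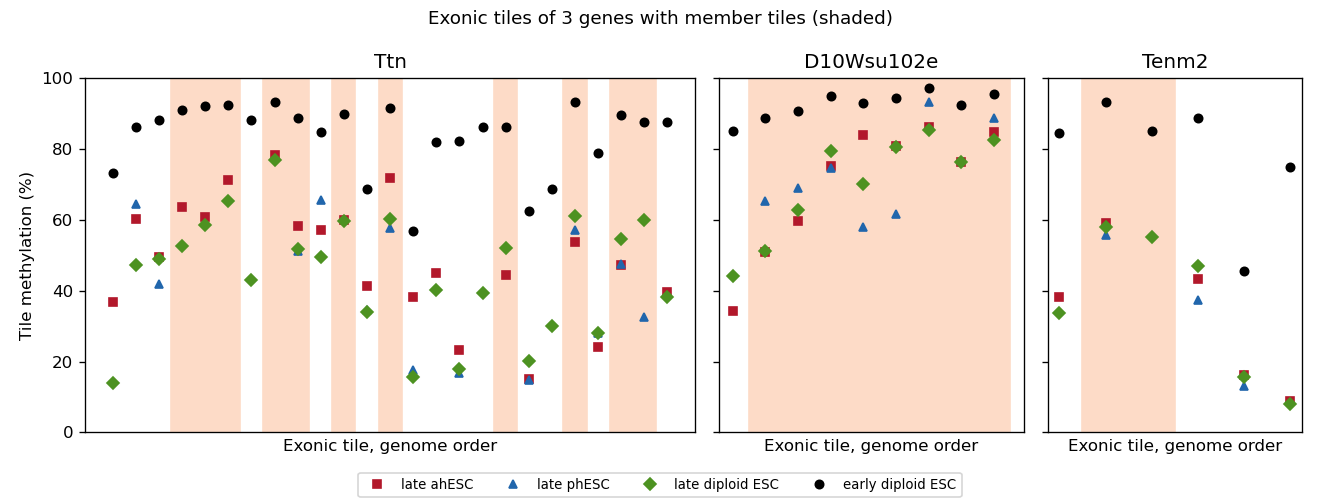
Methylation (%) of every tested exonic tile of Ttn (25 tiles), D10Wsu102e (9 tiles) and Tenm2 (6 tiles), in genome order, in late ahESCs, late phESCs, late diploid ESCs and early diploid ESCs; shading marks member tiles. Member and other tiles are intermixed along Ttn, 8 of 9 tiles of D10Wsu102e are members, and the last Tenm2 tile is at 7.91% in late diploid ESCs.

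The 14984 tested exonic tiles were spread over 9053 genes, so the number of members in a gene was limited by its few tested tiles. Of the 923 genes with an exonic member, 87 had at least 2 and 12 had at least 3, a list read off the values. Besides Ttn and D10Wsu102e they included Hspg2 (perlecan of basement membranes) and Myh9 (a nonmuscle myosin heavy chain), with 4 each. Ank3 (ankyrin-G), Lama1 (a laminin chain), Nedd4l (a ubiquitin ligase), Pfkl (a phosphofructokinase), Tenm4 (a teneurin) and Unk (an RNA-binding zinc finger protein) had 3 each. In Lama1, Pfkl and Unk all 3 tiles that began at 60% or more were members, while in Hspg2 4 of 17 were.

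The exonic members with the most cytosines give the best averaged values. The Atxn1 tile, chr13:45662001-45663000 with 54 cytosines, belongs to the gene for ataxin 1, a nuclear protein with a polyglutamine stretch. It had 60.1% in late diploid ESCs, 45.7% in late ahESCs and 43.4% in late phESCs, against 89.5%, 85.9% and 58.5% in the matching early cells. The Susd5 tile, chr9:114005001-114006000 with 40 cytosines, had 52.6%, 43.1% and 45.4% in late diploid ESCs, late ahESCs and late phESCs. Both were thus under 50% in late haploid cells. The Zfhx3 tile, chr8:111475001-111476000 with 30 cytosines in a gene for a transcription factor, had 53.5%, 59.1% and 44.3%.

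The next were Krt83, a hair keratin, Sptb, the erythrocyte beta spectrin, Ets2, a transcription factor, the olfactory receptor Olfr1152, Rhobtb1, an atypical small GTPase, and Kcnj6, a potassium channel. Over all 10 tiles late diploid ESCs had 50.1% to 60.1% and late ahESCs 43.1% to 61.1%, with 8 of 10 at 50% or more. In late phESCs 6 of 9 measured were at 50% or more, and in the WT embryo the 10 had 87.2% to 97.7%. The Sptb tile, chr12:77713001-77714000, was higher in late phESCs (62.5%) than in early phESCs (58.8%), while in ahESCs it had 56.8% late and 83.9% early.

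Listed genes were few among the members. Of all 14984 tested exonic tiles 6.73% were members. Each list below is counted over its tiles that began at 60% or more, of which 1008 of 10076 (10.004%) were members over all genes. Of the germline genes silenced by promoter methylation, 1 of 6 such tiles was a member, in Dpep3, a membrane dipeptidase of germ cells. The tile chr8:108503001-108504000 had 66.3% in late ahESCs and 51.3% in late phESCs, against 91.3% and 71.2% in the matching early cells. The other 5 germline tiles were under 50% in late diploid ESCs, which the rule fixes for tiles that are not members.

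Of the imprinted genes 3 of 14 such tiles were members, in Peg10, Igf2r and Impact. The Peg10 tile, chr6:4706001-4707000, belongs to a retrotransposon-derived gene of the placenta and had 56.9% in late and 89.8% in early ahESCs. The Impact tile, chr18:13147001-13148000 in a gene that dampens the amino acid stress response, had 37.1% in late ahESCs and 61.6% in late phESCs, against 88.8% and 55.8% in the matching early cells. The Igf2r tile, chr17:12881001-12882000 in a gene for the receptor that clears Igf2, had no value with enough cytosines in either late haploid library. In the WT embryo these tiles had 92.4% (Peg10), 93.1% (Impact) and 72.0% (Igf2r), all above the intermediate level known for an imprinted control region, where 1 parental copy is methylated.

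Of the methylation and heterochromatin genes 2 of 21 tiles were members. The Tet3 tile, chr6:83353001-83354000 in a gene for a methylcytosine oxidase, had 50.1% in late diploid ESCs, 48.9% in late ahESCs and 41.2% in late phESCs. The Dnmt3a tile, chr12:3913001-3914000, had 55.3% in late diploid ESCs and 54.1% in late ahESCs. Of the genes listed as escaping erasure in mouse primordial germ cells, Srrm2 had both its tested tiles among the members. The tile chr17:23952001-23953000 had 77.3% in late ahESCs and 62.2% in late phESCs, and chr17:23956001-23957000 had 67.9% and 57.0%. Sfi1, a centrosome protein gene on the same list, had no member among its 7 tested tiles, which had 15.97% to 37.7% in late diploid ESCs. Vmn2r29 was not among the tested tiles placed here.

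Among gene families, zinc finger genes had 8 members of 141 such tiles (5.67%), each in a different gene, at 50.5% to 60.2% in late diploid ESCs and 55.1% to 72.7% in late ahESCs. In late phESCs the 2 measured were under 50%, at 47.1% and 48.8%. The 8 were Zfp770, Zfp335, Zfp507, Zfp319, Zfp317, Zfp385c, Zfp608 and Zfp407. Olfactory and vomeronasal receptors had 4 of 35 (11.4%), in Olfr1152, Olfr71, Vmn1r88 and Olfr1395, at 59.9% to 66.2% in late ahESCs (3 tiles). Clustered protocadherins, neuronal adhesion genes, had 1 of 9, in Pcdha6, with 62.4% in late diploid and 58.8% in late ahESCs. Ribosomal protein pseudogenes had 2 of 18, Rpl12-ps1 and Rpl19-ps10, and keratin-associated proteins had 0 of 2. No list is called particular from these counts.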

How the data were processed

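The authors deposited a table of methylation percent (values of 0 to 100) for each listed cytosine of 12 libraries, with missing values marked and without coverage. Per the submitters' processing notes, it was made with Trim Galore and Bismark 0.13.1 on mm9. Other steps are not given in the sources used here.

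From this table, 621549 of 7811806 autosomal positions passed the filter of 20% in an embryo and a value in both diploid ESC libraries. They were averaged over tiles of 1 kb with at least 5 such cytosines. In libraries outside the rule a tile needed 3 of them. The member tiles, gene lists and comparisons were chosen with earlier results of these data known.

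Of 427293 GENCODE M21 exons, 75416 were placed on mm9 by matching at least 8 listed positions exactly, against 3 at a false shift. Of 31396 RefSeq promoter windows, 10841 were placed. No coordinates were converted. Tile selection and placement were tested on simulated data.

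Named tiles are the 10 highest and 5 lowest in late haploid cells, those nearest the limit, runs of at least 3, members in listed genes and the 10 exonic members with the most cytosines. Others are said to have been chosen after their values were seen. Alternatives changed the tiles, filters and cytosines used. Values came from Python 3.11.15 with pandas 2.3.3, intervals from SciPy 1.17.1, and plots from Matplotlib 3.10.9. Some genes with several members are not reported here.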

Additional observations from a re-analysis of the deposited data

Results flagged for a closer look

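Of the 10 highest and 5 lowest members in late haploid cells, 6 differed with passage in opposite directions in the haploid cell types. Each is 1 library against 1, and the difference between the cell types was not tested. Late minus early, chr12:3149001-3150000 was at 6.06 points in phESCs and -7.29 in ahESCs. The D10Wsu102e tile chr10:82899001-82900000 was at 9.63 in phESCs and -10.8 in ahESCs. The largest gap was at chr10:4124001-4125000, with 12.5 in phESCs and -14.9 in ahESCs. The tile chr1:107436001-107437000 was at 1.48 in phESCs and -8.38 in ahESCs, and chr4:149556001-149557000 was at 6.39 in phESCs and -12.5 in ahESCs. The Suclg2 tile chr6:95429001-95430000 was at 0.253 points in phESCs and -10.6 in ahESCs. A ranking by late haploid level favours tiles that read high in late phESCs. Of 2391 members with all 4 haploid values, 194 (8.11%) were lower in ahESCs and higher in phESCs at late passage, and 9 the other way. Opposite directions were not counted over all tested tiles. Taking phESCs alone, 8.16% of members were higher at late passage, against 11.8% of the other highly methylated tiles and 16.7% of all tested tiles.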

How the results depend on the processing

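The number of members stayed within 1.5 times 4841 when tiles were shifted, doubled to 2 kb or averaged by median, and under both other embryo filters. It was 1261 with 10 cytosines a tile, 8883 with 3, and 2986 with both strands of a CpG averaged. It was 442 with known CpG context outside CCGG and 848 with cytosines measured in all 12 libraries. The share of members at 50% or more in late ahESCs was 85.5% with 10 cytosines, 85.4% by median, 88.0% with strands averaged, 88.3% outside CCGG and 90.9% with all 12 libraries. In late phESCs it was 69.9% outside CCGG and 70.8% with all 12 libraries. The cause of these shifts was not tested. Under all 10 alternative tile sets members stood above the other highly methylated tiles, by 22.9 to 28.1 points in late ahESCs and 18.2 to 19.3 points in late phESCs (medians, main setting included). A further alternative limited the other tiles to the members' quartiles of early diploid level and brought the sets closer. Of these other tiles 41.6% in late ahESCs and 33.3% in late phESCs were at 50% or more, against 20.8% and 10.8% without this limit. Members within 2 kb of another were 9.27%. Counting all listed positions, the median tile held 29 in members and 32 in the other tiles. Of all tested tiles, rather than those that began high, members made up 7.69% on chromosome 11 and 13.9% on chromosome 13.

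No paired analysis was possible because each group has 1 library. Depth per cytosine is unknown, and the number of reads behind a tile with 5 cytosines cannot be given.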

Other observations

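Of the 11 members under 25% in late ahESCs with a value in the adult WT brain, 1 was also under 25% there, and their median was 94.3% in the adult WT brain and 52.5% in late diploid ESCs. Members at 25% or more in late ahESCs had 5 of 4030 under 25% in the adult WT brain.

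The promoter members held a further tile that was low in brain. The tile chr3:35305001-35306000, at the start of Gm38512 and chosen after its values were seen, had 52.1% in late diploid ESCs and 31.1% in late ahESCs, against 90.96% and 87.3% in the matching early cells. In embryos it had 75.6%, 70.1% and 76.2% in BM, BP and WT. In brains it had 17.9% in adult BM, 64.3% in E19.5 BM and 27.0% in adult WT.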
